A study of Oryza sativa with 12 samples.

Results

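Knockout line b of rice was set against knockout line a, which carries a knockout of the same gene. The comparison covers the transcribed loci that the authors' deposited Cuffdiff table lists as tested between the 2 lines (status OK) and that reach at least 5 FPKM in one of them. FPKM is the number of sequenced fragments per kilobase of a transcript, corrected for the total mapped in the library. These were 16856 of the 37672 loci of the table. A further 1020 tested loci stayed under 5 FPKM in both lines, and 19796 were listed as not tested.

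Both lines are OsC3'H1 knockouts in cultivar Nipponbare, sampled as whole aerial parts 12 days old, in the T3 generation, with 3 biological replicates a line. The series also holds wild type aged 12 days and wild type aged 5 days, 3 replicates each, whose values are given beside some loci. All plants started on half-strength Murashige and Skoog agar at 27 °C with 12 h of light a day. The labels name a move to a tap-water solution on day 7 for wild type only, so the 2 lines shared their stated growth conditions whereas a difference from wild type cannot be told apart from that move. The labels do not describe the mutations, nor say whether each line is 1 transformation event. They also contradict themselves on the line letters, as titles and source names assign them the other way round. Titles are followed here, because the table's group names match them, and each direction below is turned round if the source names are right.

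OsC3'H1 encodes a cytochrome P450 of the lignin pathway that adds the second hydroxyl group to the ring of p-coumaroyl esters. Its product leads to the guaiacyl and syringyl units of lignin, the polymer that stiffens and waterproofs vascular walls. Rice shoots are also known for inducible defences, among them diterpenoid phytoalexins (momilactones, phytocassanes and oryzalexins), chitinases and PR10 proteins, and for dehydrins, hydrophilic proteins that accumulate with abscisic acid and water loss. Independent lines of one knockout are used to separate what follows from the gene from what belongs to a line.

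Each FPKM below is the single value that the authors' deposited table gives for a group of replicates, so no spread between replicates can be given and the sequencing depth is unknown. Loci with a deposited q (the p-value adjusted for multiple tests) under 0.05 are called here. In the authors' deposited table, the last locus inside this threshold had a q of 0.0498 and the first outside had 0.0501. At the minimum of 5 FPKM, the last locus inside was at 5.0009 FPKM in line b and 3.8466 FPKM in line a, and the first outside was at 4.9988 FPKM in line b and 4.7994 FPKM in line a. The error beside a log2 ratio of line b over line a is the ratio divided by its deposited test statistic, here named the implied error, and each interval is the 95% interval from that error. The deposited p was smaller than the p of that statistic read as a normal deviate at 99.8% of 16842 loci and larger at 35. Of the 858 called loci with an interval, 579 have one that takes in 0.

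The targeted gene itself was at 12.8 FPKM in line b and 10.7 FPKM in line a, against 53.1 FPKM in wild type of the same age and 65.7 FPKM in wild type of 5 days. OsC3'H1 (Os05g0494000, IRGSP-1.0 chromosome 5, 24271089 to 24275162) was thus still listed in both lines, and was not called between them, with a log2 ratio of 0.26 and an interval of -0.36 to 0.88. Neither the table nor RefSeq pairs this locus with the gene name, which was taken from general knowledge. Among markers of the sampled organs, RBCS2 (a Rubisco small subunit of leaf mesophyll) was at 1452 FPKM in line b and 1507 FPKM in line a. The leaf mesophyll markers CAB2R and RCA were called lower in line b, with log2 ratios of -0.52 and -0.38. Of 5 KNOX genes of the shoot meristem 3 reached 5 FPKM in one line, none of them was called, and their ratios lay between -0.34 and -0.05. The root silicon channel NIP2-1 was at 6.99 FPKM in line b and 6.56 FPKM in line a, while its partner LSI2 was listed at 0 in both, and of the seed glutelins GLUA1 was under 0.2 FPKM in both and GLUA2 at 2.87 FPKM in line b and 2.96 FPKM in line a.

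Between the lines 868 loci were called, 5.15% of the 16856, with 425 higher in line b (2.52%) and 443 lower in line b (2.63%). Under the same rule 47.7% of loci were called in line b against 12-day wild type and 46.1% in line a against 12-day wild type, from 8320 and 8006 calls. Ratios were small. The median log2 ratio of line b over line a was -0.01, the central 90% of loci lay between -0.43 and 0.42, and 95.2% of loci with a value above 0 in both lines were within 1.5-fold. Among called loci above 0 in both lines, the median log2 ratio was 0.57 for those that rose and -0.51 for those that fell. A difference of at least 2-fold was called at 120 loci above 0 in both lines, 74 that rose and 46 that fell, and at 10 more loci listed at 0 in one line. Of the 868 called loci, 125 were under 5 FPKM in one line and so were counted only through the line where they are higher, which was line b for 74 and line a for 51. In whole shoots, fewer cells of a type and less RNA per cell cannot be told apart, and this holds for each difference below.

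These counts rest on how precise the deposited p is taken to be. With the test statistic read as a normal deviate and adjusted over this comparison, 31 loci passed (0.184%), 22 higher and 9 lower in line b, and all 31 are among the 868. With the deposited p adjusted over this comparison alone, instead of over the 108602 tests of all 6 comparisons, 271 loci passed (1.61%). The authors' own significance flag, which runs to a q of 0.1, marks 1370 of the loci (8.13%). LAC24, BURP16 and RAB16B were the named genes among the 31.

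**Figure D1:**
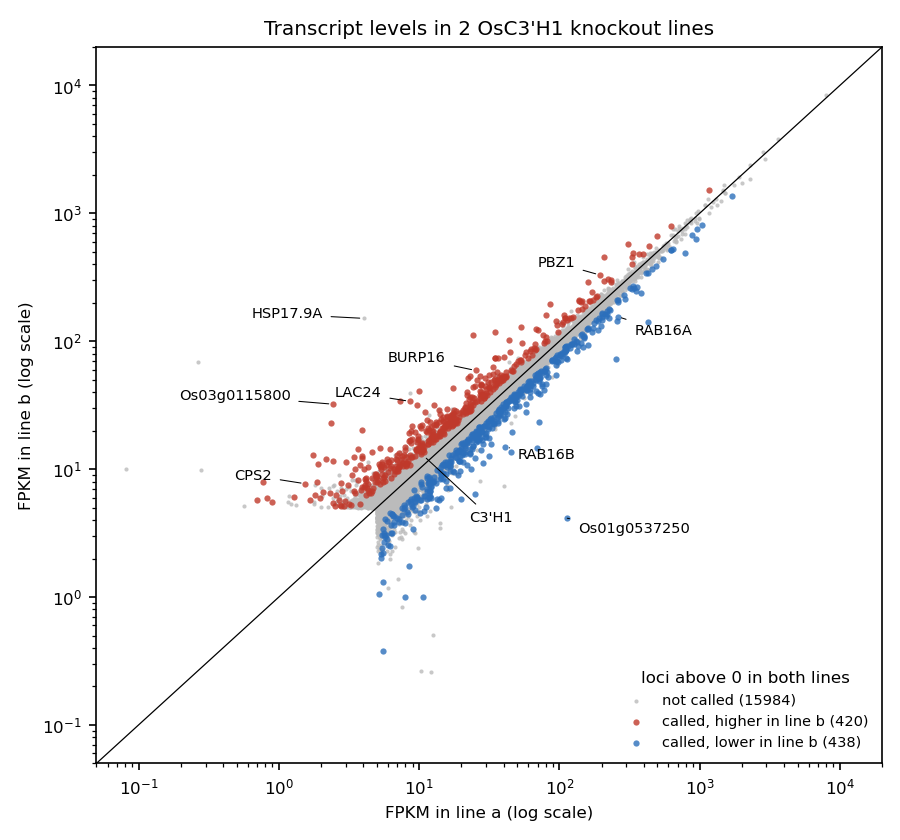
Each point is 1 locus above 0 in both lines, with its FPKM in line b on the vertical axis and in line a on the horizontal axis, both on log scales, and the line marks equal values. Most of the 15984 loci that were not called lie close to the line, 420 called loci lie above it and 438 below it, and the point of HSP17.9A, far above the line, was not called.

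Calls became more frequent with level. Of 4007 loci between 5 and 10 FPKM in the higher line, 3.27% were called, and of 1337 loci between 100 and 1000 FPKM, 10.5% were. The median implied error was 0.495 in the first class and 0.214 in the second. The balance of directions shifted too, with 72 higher and 59 lower in the first class, against 53 higher and 87 lower in the second. By chromosome the share called ran between 4.47% on chromosome 2 and 5.96% on chromosome 12.

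Loci nearly silent in wild type held a larger share of calls. Of the 387 loci under 1 FPKM in 12-day wild type, 107 were called (27.6%), 66 higher and 41 lower in line b, and 60 were called at 2-fold or more. Of the 16469 other loci, 761 were called (4.62%) and 70 were called at 2-fold or more (0.425%). The level in the higher line had a median of 8.59 FPKM in the first class and 20.1 FPKM in the second. Whether level bears on the share called was not tested. Of the 107 called loci, 56 were under 5 FPKM in one line and so counted only through the line where they are higher. With a mean of the 2 lines of at least 5 FPKM as the minimum instead, chosen after the data were seen, 51 loci rose and 30 fell among 303 in the first class, and 346 rose and 389 fell among 16041 in the second (4.58% called).

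The table carries locus identifiers without names, so functions could be read only at loci that were named by hand and whose symbol RefSeq has at the same relative place. That gave 397 named loci among the 16856, in 52 lists, of which 66 (16.6%) were called, 37 higher and 29 lower in line b. This share is above 5.15%, and the lists were written with earlier results of these data known, so nothing is read from it. The same limit holds for the count of each list below. Shares of all loci stand beside those counts as description, and an excess over them is not read as a result.

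**Figure D2:**
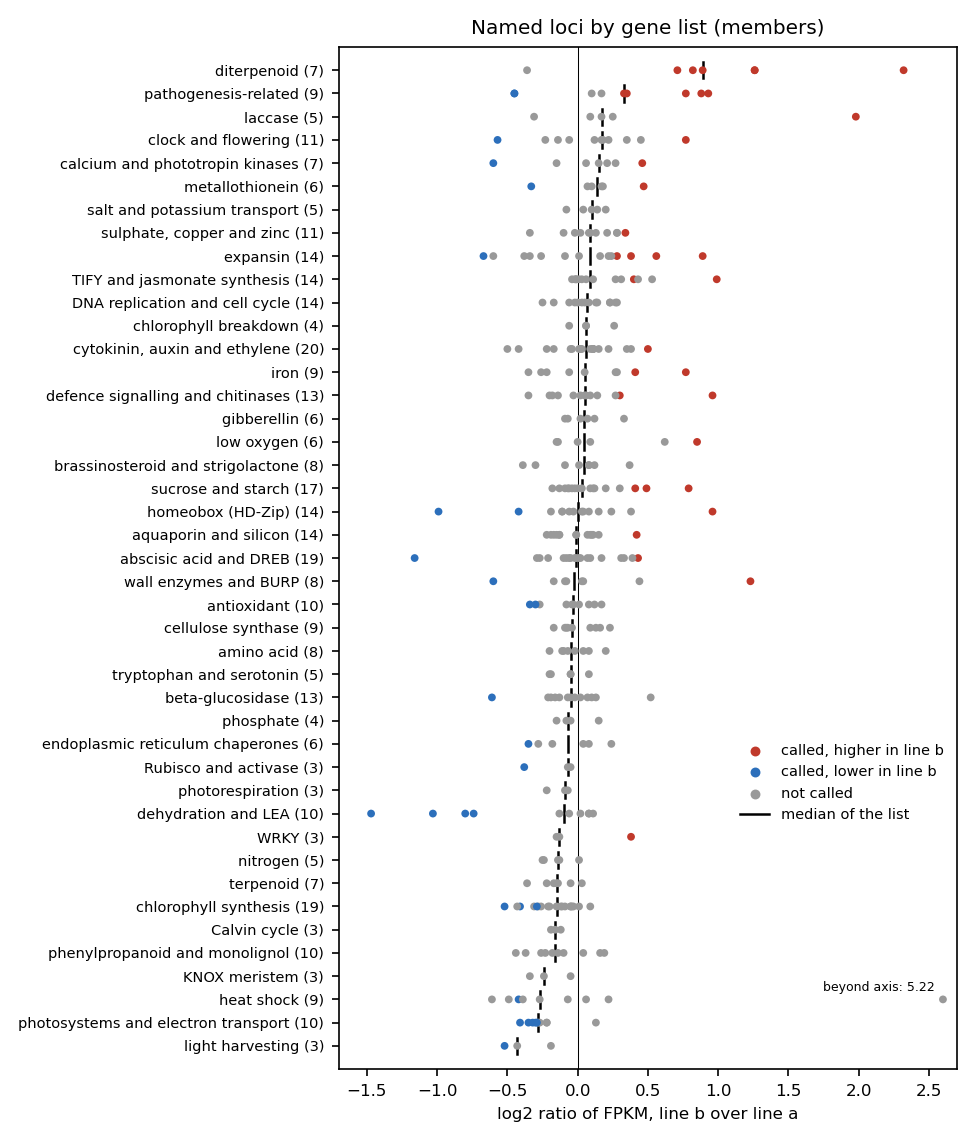
Each row is a gene list with 3 or more loci (their number in brackets), each point is the log2 ratio of FPKM of line b over line a at 1 locus, and the bar is the list's median. The diterpenoid list stands at the top, where 5 of the 7 points reached 5 FPKM in line b only, and light harvesting at the bottom with a median of -0.43. One heat shock locus at 5.22 is drawn at the edge.

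Several diterpenoid phytoalexin genes were higher in line b. Of 15 named loci of this list, 13 had a log2 ratio above 0 and 2 below 0. With no FPKM minimum, 8 of the 10 that the authors tested rose and none fell, where 2.47% of all tested loci rose. Against 12-day wild type, CPS2, CYP71Z7, KSL10 and CYP99A3 were tested in line b but not in line a. Being tested can thus itself depend on line b, where they are higher, so nothing is read from this count either. At the minimum of 5 FPKM, 7 loci were counted and 6 of them rose, but 5 of the 6 reached the minimum only in line b, where they are higher, so nothing is read from that count. The q of the 6 ran between 2.53e-04 and 0.0242 in the authors' deposited table. The first steps of the pathway are made by copalyl diphosphate synthases. CPS2, which makes the ent form used for phytocassanes and oryzalexins, was at 7.69 FPKM in line b and 1.54 FPKM in line a. CPS4, which makes the syn form used for momilactones, was at 9.17 FPKM in line b and 4.94 FPKM in line a. Line b thus had the larger value of both, with log2 ratios of 2.32 (implied error 1.44) for CPS2 and 0.89 (implied error 0.43) for CPS4. The CPS2 row of the table merges 2 annotated genes (Os02g0570900 and Os02g0571100), and its interval, -0.50 to 5.13, takes in 0.

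Kaurene synthase-like enzymes act next. KSL7, which makes the phytocassane precursor, was at 10.4 FPKM in line b and 4.33 FPKM in line a, and rose by 1.26 with an interval of 0.59 to 1.94. KSL4, which makes the momilactone precursor, was at 6.53 FPKM in line b and 8.39 FPKM in line a. It was the list's only ratio below 0 at this level, at -0.36, and was not called. Of the P450 enzymes, CYP71Z7 was at 6.71 FPKM in line b and 2.81 FPKM in line a, CYP99A2 at 7.94 FPKM in line b and 4.85 FPKM in line a, and CYP701A8 at 17.2 FPKM in line b and 9.76 FPKM in line a. Their log2 ratios were 1.26, 0.71 and 0.82. Among the loci counted here, KSL7, CYP71Z7 and the merged CPS2 row follow each other on chromosome 2 (21765010 to 21847575). CYP71Z6 (Os02g0570500), under the minimum in both lines, has an identifier between those of KSL7 (Os02g0570400) and CYP71Z7 (Os02g0570700). CYP99A2 and CPS4 belong to the chromosome 4 momilactone cluster.

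The other 8 loci were under 5 FPKM in both lines, and some showed ratios as large. KSL10, of the oryzalexin branch, was at 4.39 FPKM in line b and 1.72 FPKM in line a, CYP99A3 at 4.16 FPKM in line b and 0.609 FPKM in line a, and the momilactone synthase MAS at 4.04 FPKM in line b and 1.92 FPKM in line a. KSL10 and CYP99A3 passed the deposited q, at 0.00152 and 0.0395 in the authors' deposited table. Among the remaining 5, KSL5 was near 0.1 FPKM in both lines and KSL6, CYP71Z6, CYP76M5 and CYP76M8 were under 3.5 FPKM in both. In 12-day wild type KSL7, CYP71Z7 and CPS4 were listed at 0.

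**Figure D3:**
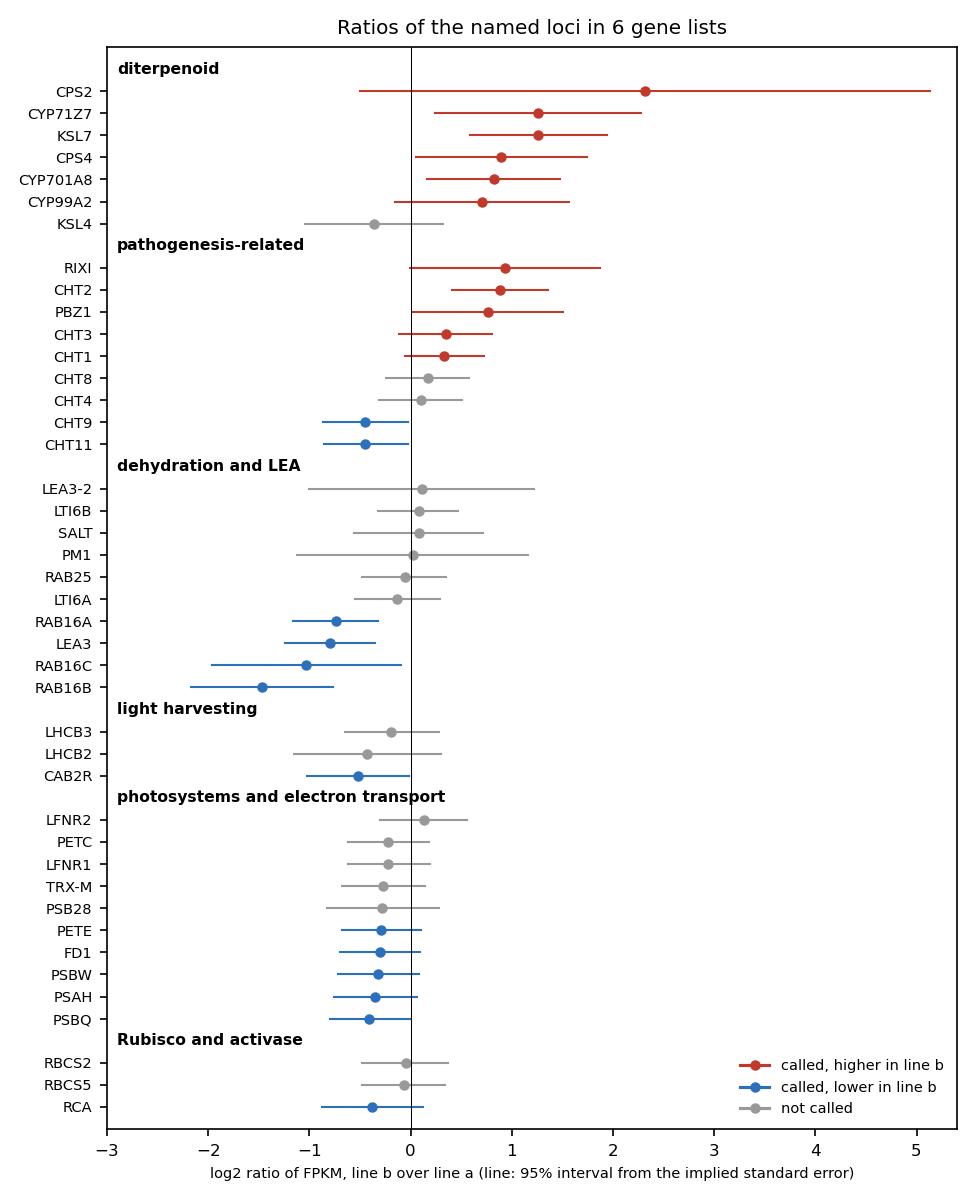
Points are log2 ratios of FPKM of line b over line a for the named loci of 6 lists, and lines are 95% intervals from the implied standard error. The 6 called diterpenoid loci lie between 0.71 and 2.32, the 4 called dehydration loci between -1.47 and -0.74, and the photosystem loci lie mostly just below 0, with RBCS2 at -0.05.

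Defence proteins did not move as one group. Of 9 named loci of the pathogenesis-related list, 5 rose and 2 fell in line b, where 2.52% of all loci rose and 2.63% fell. The median log2 ratio of the list was 0.33. PBZ1, a PR10 protein, was at 330 FPKM in line b and 194 FPKM in line a, against 4.48 FPKM in 12-day wild type. CHT2, a chitinase that cuts fungal cell walls, was at 82.7 FPKM in line b and 44.8 FPKM in line a, against 0.898 FPKM in 12-day wild type. Their log2 ratios were 0.77 (implied error 0.38) and 0.88 (implied error 0.24). RIXI, a xylanase inhibitor, was at 11.4 FPKM in line b and 5.97 FPKM in line a. The abundant chitinase CHT1 was at 552 FPKM in line b and 438 FPKM in line a, a log2 ratio of 0.33.

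The chitinases CHT9 and CHT11 went the other way. CHT9 (Os05g0399400), which has the next locus identifier after CHT2 (Os05g0399300), was at 110 FPKM in line b and 150 FPKM in line a, and CHT11 at 147 FPKM in line b and 200 FPKM in line a, each with a log2 ratio of -0.45. CHT4 was not called, at 1038 FPKM in line b and 971 FPKM in line a. RCH10, one more chitinase, was at 23.4 FPKM in line b and 12.0 FPKM in line a, with a log2 ratio of 0.96 and an interval of 0.24 to 1.68. Signalling components of chitin defence had small ratios. The chitin receptor CEBIP rose slightly, at 96.1 FPKM in line b and 78.3 FPKM in line a, while its co-receptor CERK1 was at 40.3 FPKM in line b and 38.8 FPKM in line a and was not called. The salicylate co-activator NPR1 had a log2 ratio of 0.02 with an interval of -0.61 to 0.65. Of 3 named WRKY factors 1 rose and none fell, where 2.52% of all loci rose. It was WRKY71, with a log2 ratio of 0.38, at 39.1 FPKM in line b and 29.9 FPKM in line a.

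Of 14 named loci of jasmonate synthesis and TIFY repressors 2 rose and none fell, where 2.52% of all loci rose. One of the 2, AOS2, reached 5 FPKM only in line b, where it is higher, so nothing is read from that count. AOS2, an allene oxide synthase, was at 6.78 FPKM in line b and 3.42 FPKM in line a, a log2 ratio of 0.99 with an interval of -0.01 to 1.98. TIFY6A, a repressor of jasmonate responses, rose with a log2 ratio of 0.40. AOC, OPR7 and JAR1, which act after allene oxide synthase, had ratios of -0.02, -0.04 and -0.01, each with an interval inside 2-fold either way.

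In the laccase list 1 of 5 loci rose, and in the list of wall enzymes and BURP proteins 1 of 8 rose and 1 fell. Among all loci 2.52% rose and 2.63% fell. The wall enzyme and BURP list had 4 ratios above 0 and 4 below, with a median of -0.02. LAC24, a laccase (a copper oxidase of the family that couples lignin monomers), was at 33.9 FPKM in line b and 8.58 FPKM in line a, and was listed at 0 in 12-day wild type. Its log2 ratio was 1.98 (implied error 0.32, interval 1.36 to 2.60). That was the largest among named single-gene loci that were called and reached 5 FPKM in one line. The other 4 laccases at this level, LAC3, LAC4, LAC7 and LAC10, were not called and had ratios between -0.31 and 0.25. BURP16, similar to a polygalacturonase subunit, was at 59.1 FPKM in line b and 25.3 FPKM in line a, with a log2 ratio of 1.23 and an interval of 0.74 to 1.71.

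Expansins, proteins that loosen walls during growth, were split. Of 14 named loci of that list 4 rose and 1 fell, where 2.52% of all loci rose and 2.63% fell. The median of the list was 0.09. With only the symbols written before the table was opened, none of the list rose. EXPA1 was at 11.3 FPKM in line b and 6.12 FPKM in line a, and EXPA4 at 112 FPKM in line b and 76.0 FPKM in line a. EXPB6 and EXPB3 rose less, with log2 ratios of 0.38 and 0.28. EXPA6 fell, at 7.92 FPKM in line b and 12.6 FPKM in line a. PMEI28, an inhibitor of pectin methylesterase and the locus of the wall enzyme list that fell, was at 10.4 FPKM in line b and 15.7 FPKM in line a. The intervals of EXPA1, EXPA4, EXPB6, EXPA6 and PMEI28 take in 0.

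The RAB16 dehydrins and LEA3 were lower in line b. Of 10 named loci of the dehydration list 4 fell and none rose, where 2.63% of all loci fell, and 4 of the 10 ratios were above 0. The 4 that fell had q between 2.53e-04 and 0.00301 in the authors' deposited table. RAB16B was at 14.9 FPKM in line b and 41.2 FPKM in line a, against 0.887 FPKM in 12-day wild type. RAB16C was at 9.66 FPKM in line b and 19.7 FPKM in line a, and RAB16A at 156 FPKM in line b and 260 FPKM in line a. The 3 lie side by side on chromosome 11 (15327768 to 15343671), and their log2 ratios were -1.47 (interval -2.17 to -0.77), -1.03 and -0.74. The fourth copy, RAB16D, was under the minimum, at 1.94 FPKM in line b and 3.91 FPKM in line a. LEA3, a late embryogenesis abundant protein, was at 54.2 FPKM in line b and 94.0 FPKM in line a, a log2 ratio of -0.80.

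The other 6 named loci of the list were not called, so its median was -0.10. RAB25 was at 68.4 FPKM in line b and 71.5 FPKM in line a. The lectin SALT, the most abundant of the list, was at 8394 FPKM in line b and 7955 FPKM in line a. Components of abscisic acid signalling fell at few places. PP2C51, a phosphatase of that pathway, was at 2.42 FPKM in line b and 5.40 FPKM in line a, with a log2 ratio of -1.16 and an interval of -2.60 to 0.28. HOX24 and HOX22, homeodomain factors that respond to drought, fell with log2 ratios of -0.99 (interval -2.19 to 0.21) and -0.42 (interval -0.86 to 0.03). HOX24 was at 3.15 FPKM in line b and 6.26 FPKM in line a, and HOX22 at 76.4 FPKM in line b and 102 FPKM in line a. PP2C51 and HOX24 reached 5 FPKM only in line a, where they are higher. Of 14 named loci of the homeobox list 1 rose and 2 fell, where 2.52% of all loci rose and 2.63% fell, and its median was 0.00. Of 19 named loci of the abscisic acid and DREB list 1 rose (the kinase SAPK7, 0.43) and 1 fell (PP2C51). Among all loci 2.52% rose and 2.63% fell. The median ratio of the list was -0.01.

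**Figure D4:**
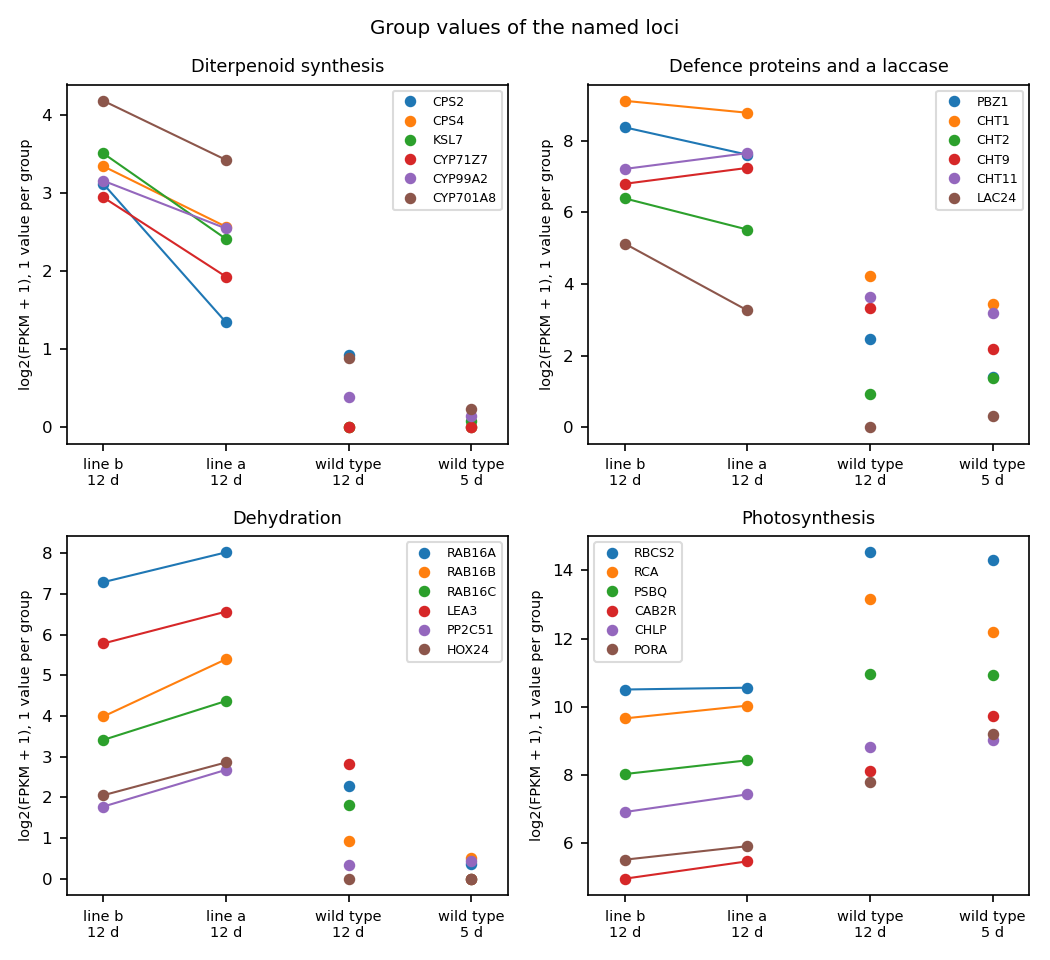
Each point is log2(FPKM + 1) of 1 named locus in 1 group, with 1 value per group, and lines join line b to line a. The loci of each panel were picked after their values were seen, and the panels leave out KSL4, SALT and others that did not move this way. The 6 diterpenoid loci picked stand higher in line b, the 6 picked for the dehydration panel stand lower in line b, and the photosynthesis panel shows both lines below wild type.

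Photosynthesis transcripts were slightly lower in line b. In 7 lists (light harvesting, photosystems and electron transport, Rubisco and activase, Calvin cycle, photorespiration, chlorophyll synthesis, GLK regulators) 43 named loci were counted, of which 10 fell and none rose. Among all 16856 loci 2.63% fell. Of the 43 ratios 40 were below 0, against 51.5% of all loci, and their median was -0.21 with a range of -0.52 to 0.13. Many of these transcripts are abundant, and loci between 100 and 1000 FPKM as a class had a median of -0.03, with 87 of 1337 called lower. CAB2R, a chlorophyll-binding antenna protein, was at 29.9 FPKM in line b and 43.0 FPKM in line a, against 273 FPKM in 12-day wild type. PSBQ, a subunit of the oxygen-evolving complex, was at 259 FPKM in line b and 343 FPKM in line a. RCA, the chaperone that reactivates Rubisco, was at 806 FPKM in line b and 1046 FPKM in line a. Their log2 ratios were -0.52, -0.41 and -0.38, each with an implied error between 0.20 and 0.26.

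In electron transport PSAH, PSBW, the ferredoxin FD1 and plastocyanin (PETE) fell too, with log2 ratios between -0.35 and -0.29. In chlorophyll synthesis 3 of 19 loci fell, where 2.63% of all loci did. They were CHLP (which supplies the phytol tail), PORA (which reduces protochlorophyllide in light) and HEMB. CHLP was at 119 FPKM in line b and 171 FPKM in line a, and PORA at 44.5 FPKM in line b and 58.9 FPKM in line a. The Rubisco small subunits RBCS2 and RBCS5 were close to equal, with ratios of -0.05 (interval -0.48 to 0.37) and -0.07 (interval -0.48 to 0.34). GLK1, a factor that switches on antenna and chlorophyll genes, was at 44.4 FPKM in line b and 51.9 FPKM in line a and was not called.

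A pair of clock genes moved in opposite directions. LHY, a morning repressor of the clock, was at 92.1 FPKM in line b and 137 FPKM in line a, a log2 ratio of -0.57. PCL1, the rice LUX protein of the evening complex, was at 22.2 FPKM in line b and 13.1 FPKM in line a, a log2 ratio of 0.77. PRR1 was not called, with a ratio of 0.35, nor was GI, with 0.17. The labels give no time of day for the harvest of either line. PHOT1B, a blue light receptor kinase, fell, at 5.0 FPKM in line b and 7.56 FPKM in line a, while the phytochromes PHYA, PHYB and PHYC had ratios between 0.12 and 0.22 and were not called.

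Of 17 named loci of sucrose and starch metabolism 3 rose and none fell, where 2.52% of all loci rose, and 9 of the 17 ratios were above 0 and 8 below, with a median of 0.03. TPP1, a trehalose-phosphate phosphatase, was at 22.6 FPKM in line b and 13.1 FPKM in line a, the cell wall invertase CIN1 at 44.1 FPKM in line b and 31.4 FPKM in line a, and PPDKB at 38.6 FPKM in line b and 28.9 FPKM in line a. TPP2 rose as well, with a ratio of 0.51. In the iron list NAS3 (nicotianamine synthesis) was at 20.1 FPKM in line b and 11.8 FPKM in line a, and NRAMP1 (a metal transporter) rose with a log2 ratio of 0.41. The metallothioneins MT1B and MT2A went apart, with MT1B at 308 FPKM in line b and 222 FPKM in line a, and MT2A at 1366 FPKM in line b and 1717 FPKM in line a. The superoxide dismutases SODCC1 and SODCC2 fell, with ratios of -0.30 and -0.34, as did the chaperones BIP1 (-0.35) and HSP81-1 (-0.42) and the beta-glucosidase BGLU33 (-0.61).

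Further single genes rose. These were PDC1 (pyruvate decarboxylase, 0.85, in a row of the table that merges 2 annotated genes), HOX12 (0.96), the ethylene-forming oxidase ACO1 (0.50), the kinase CIPK14 (0.46), the vacuolar aquaporin TIP2-2 (0.42) and the metal pump HMA2 (0.34). TIP2-2 was at 665 FPKM in line b and 498 FPKM in line a. HOX12 was at 8.09 FPKM in line b and 4.17 FPKM in line a, and PDC1 at 6.92 FPKM in line b and 3.83 FPKM in line a. Both reached 5 FPKM only in line b, where they are higher. The intervals of HOX12, PDC1, ACO1 and HMA2 take in 0, and those of CIPK14 and TIP2-2 do not.

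In 23 of the 52 lists no locus was called, where 5.15% of all loci were. At that share a short list can hold no call without differing from other loci, so nothing is read from this count. The list of lignin precursor synthesis, to which the targeted gene belongs by pathway, was among them. Its 10 named loci had ratios between -0.44 and 0.19, with a median of -0.16, and the lowest q was 0.0556 in the authors' deposited table. Phenylalanine ammonia-lyase PAL4 was at 28.5 FPKM in line b and 30.6 FPKM in line a, the methyltransferase ROMT-9 at 422 FPKM in line b and 464 FPKM in line a, and the hydroxycinnamoyl transferase HCT2 at 105 FPKM in line b and 91.5 FPKM in line a. The alcohol dehydrogenase CAD6 had the lowest ratio, -0.44, with an interval of -1.10 to 0.21. All 9 cellulose synthases CESA1 to CESA9 lay between -0.17 and 0.23, each with an interval inside 2-fold either way. CESA1 was at 243 FPKM in line b and 255 FPKM in line a.

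Cell division genes were also not called, where 5.15% of all loci were. The 14 named loci of DNA replication and the cell cycle had ratios between -0.25 and 0.28, with PCNA at 50.9 FPKM in line b and 49.1 FPKM in line a. One of them, CDKB1-1, had an interval of -3.62 to 3.61 and so was not measured well enough to compare. The strigolactone receptor D14 was at 189 FPKM in line b and 188 FPKM in line a, and the cystatin OC1 at 675 FPKM in line b and 629 FPKM in line a. A locus that was not called is not thereby shown to be equal. By the interval, 11494 of the 16856 loci (68.2%) differed by less than 2-fold either way and 3984 (23.6%) by less than 1.5-fold, whereas 4824 loci (28.6%) were not called and had an interval reaching past 2-fold.

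Among called loci above 0 in both lines, the largest ratios were at loci with no name. Os03g0115800 (chromosome 3, 887192 to 888623) was at 32.2 FPKM in line b and 2.43 FPKM in line a, a log2 ratio of 3.73 with an interval of 2.02 to 5.43, and was listed at 0 in both wild types. Os01g0138800 (chromosome 1, 2071842 to 2073616) was at 7.91 FPKM in line b and 0.777 FPKM in line a. In the other direction Os01g0537250 (chromosome 1, 19549144 to 19550439) was at 4.13 FPKM in line b and 114 FPKM in line a, a log2 ratio of -4.78 with an interval of -5.79 to -3.78. An unannotated locus on chromosome 4 (16358584 to 16361972) was at 0.375 FPKM in line b and 5.53 FPKM in line a.

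Of the 10 called loci listed at 0 in one line, 5 were at 0 in line b and 5 in line a. None carries a name here, and 3 of the 10 hold no annotated gene. The highest was Os07g0162450, chosen after its values were seen, listed at 0 in line b and at 109 FPKM in line a, against 0.155 FPKM in 12-day wild type. In the other direction the highest value was an unannotated locus at 15.9 FPKM in line b, listed at 0 in line a and in both wild types.

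Some called loci stood next to other called loci. Of the 868, 94 (10.8%) stood next to a called locus of the same direction among the loci counted here, and 58 (6.68%) next to one of the other direction. There were 11 runs of 3 or more in the same direction. The matching shares over all loci were not computed, so nothing is read from these counts. One run was the set of KSL7, CYP71Z7 and CPS2 and another the set of RAB16C, RAB16B and RAB16A. KSL7, CYP71Z7 and CPS2 reached 5 FPKM only in line b, where they are higher, so nothing is read from their run. A run on chromosome 8 held Os08g0136300, Os08g0136500, Os08g0136700 and Os08g0136800, with log2 ratios between 0.64 and 1.51. Another, on chromosome 11 beside RIXI, held Os11g0701400, at 23.1 FPKM in line b and 2.37 FPKM in line a, and Os11g0701600, at 29.2 FPKM in line b and 13.9 FPKM in line a. These runs were chosen after their values were seen. Tandem copies can share reads, and how the authors' counting split such reads is not given in the sources used here, so values of single copies are uncertain.

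Some large ratios were not called. HSP17.9A, a small heat shock protein, was at 151 FPKM in line b and 4.04 FPKM in line a, against 1.93 FPKM in 12-day wild type. Its log2 ratio of 5.22 had an implied error of 2.72, and its q was 0.144 in the authors' deposited table. Its interval was -0.12 to 10.56. The other 8 named heat shock loci lay between -0.61 and 0.22. Among loci above 0 in both lines, 95 differed by at least 2-fold without being called, the largest of them an unannotated locus at 68.7 FPKM in line b and 0.267 FPKM in line a. A further 4 loci listed at 0 in one line were not called.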

How the data were processed

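RNA sequencing of 12 libraries in 4 groups was summarised by the authors in 1 Cuffdiff table for IRGSP-1.0. Trimmomatic, HISAT2, Cufflinks, Cuffdiff and FastQC are named in the submitters' processing notes, with no versions or options. The authors' deposited values are FPKM, 1 per group; deposited beside them are log2 fold changes, a test statistic (a score), a p-value and a q-value for each pair of groups. The log2 ratio of line b over line a was recomputed from the FPKM, and q was used as deposited (under 0.05, status OK). The smallest deposited p was 5.00e-05. The adjustment and the normal test of the statistic were tested on simulated data, with Python 3.11.15, pandas 2.3.3, numpy 2.4.6 and scipy 1.17.1. Symbols came from 780 hand-written entries, of which 517 were kept because RefSeq (assembly ASM3414082v1) holds the symbol on the same chromosome within 0.05 of its relative length; 335 entries were added after the table was opened. Loci, gene lists and alternatives were chosen with earlier results of these data known. Genes were named by rule: the target, the 12 named loci that rose most and the 12 that fell most, the 2 unnamed loci at each end, and up to 4 called loci a list or else its most abundant locus; other loci were picked after their values were seen. The deposited p-values come from Cuffdiff with options not given, so which spread they measure cannot be checked. At most it is the spread between replicates within groups, of these 2 lines or of all 4 groups, which the deposited values do not show. No sequence is printed, as no sequence was at hand.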

Additional observations from a re-analysis of the deposited data

Results flagged for a closer look

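At 2 loci the lines departed from 12-day wild type in opposite directions, each departure was called, and the lines differed from each other. Os01g0216000 was at 1.0 FPKM in line b and 10.7 FPKM in line a, against 4.64 FPKM in 12-day wild type, with a log2 ratio of line b over line a of -3.42 (implied error 0.96). Os06g0728700 was at 15.6 FPKM in line b and 32.4 FPKM in line a, against 25.0 FPKM in 12-day wild type, with a log2 ratio of -1.05 (implied error 0.25). Neither locus has a name here.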

How the results depend on the processing

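Calls in line b against line a depended on the test. Against 868 loci (425 higher, 443 lower), q under 0.01 left 393 (203 higher, 190 lower), adjustment over this comparison alone 271 (149 and 122), the statistic as a normal deviate 31 (22 and 9) and a 2-fold minimum 130 (79 and 51), while the authors' significance flag, added after the data were seen, gave 1370 (657 and 713). Other FPKM minimums (1, 10 or none), a mean of 5 FPKM over the 4 groups a mean of 5 FPKM over the 2 lines (added after the data were seen) and loci with 1 annotated gene left each of these counts within 1.5 times. The list counts were tried after the data were seen. The diterpenoid count of 6 became 2 with 10 FPKM, 1 with a mean of 5 FPKM over 4 groups, 3 with a 2-fold minimum and 0 with the statistic. The pathogenesis-related count of 5 that rose became 1 with adjustment over this comparison alone and 0 with the statistic or the 2-fold minimum. The dehydration count of 4 became 1 with the statistic and 2 with the 2-fold minimum. The photosynthesis count of 10 became 4 with q under 0.01, 3 with adjustment over this comparison alone and 0 with the statistic or the 2-fold minimum. The expansin count of 4 became 1 with q under 0.01 and 0 with adjustment over this comparison alone, the statistic, the 2-fold minimum or symbols written before the table was opened. Of 63 called loci chosen by the naming rule 58 lost the call with the statistic. A pseudocount of 1 in both lines cannot turn a direction. Centring on the median of -0.01 cannot turn a called one, as the smallest called log2 ratio was 0.27 in size. Neither setting therefore tests the directions. No paired analysis was possible because the table gives 1 value per group, which also means that no replicate could be left out. The depth is unknown.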
